A study of Mus musculus with 8 samples.

Results

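The enzymes that make serine and move its one-carbon unit onto folate were examined in FT1CL cells with and without Cop1. The 10 genes, chosen by name, were Phgdh, Psat1, Psph, Shmt1, Shmt2, Mthfd1, Mthfd2, Mthfd1l, Aldh1l2 and Asns. They account for 147 of 134051 exon-exon junctions and 10 of 13378 genes in the deposited table, and all 10 were among the 11003 genes tested. FT1CL is a single mouse acute myeloid leukemia line. It was derived from marrow of an 8-week-old mouse with a conditional Cop1 allele and tamoxifen-inducible Cre at Rosa26, taken 5 days after 150 mg/kg 5-fluorouracil and transduced with a pMYs retrovirus for Trib1. The 4 knockout (KO) libraries came from Cop1 ko/ko cells treated with 4-hydroxytamoxifen, and the 4 wild-type (WT) libraries from untreated Cop1 +/+ cells. All cells carried the Trib1 retrovirus and were kept with 5 ng/mL interleukin-3. Drug and genotype changed together in every library, so their effects cannot be told apart. The labels do not say whether libraries of a group are separate cultures, so the p-values given here rest on library-to-library spread, in which technical and culture differences cannot be told apart.

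Serine is built from the glycolytic intermediate 3-phosphoglycerate by Phgdh, Psat1 and Psph, acting in that order. Serine hydroxymethyltransferases then split serine into glycine and a one-carbon unit carried by tetrahydrofolate, with Shmt1 in the cytosol and Shmt2 in mitochondria. Mitochondrial Mthfd2, Mthfd1l and Aldh1l2 oxidise or release that unit, and cytosolic Mthfd1 recaptures formate for purine and thymidylate synthesis. Asns makes asparagine, and with Phgdh, Psat1, Shmt2 and Mthfd2 it is a known target of the transcription factor ATF4. Proliferating leukemia cells draw on these reactions for nucleotides.

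Levels are junction reads summed per gene and scaled to 1000000 junction reads of the library (RPM). Libraries held 17333302 to 22469109 junction reads in KO and 17811247 to 20981993 in WT (exact permutation p = 0.6, two-sided). Cop1 itself averaged 73.7 ± 6.47 RPM in KO libraries and 162 ± 2.92 RPM in WT libraries (SD, n = 4 each), a log2 fold change of -1.13. Trib1 averaged 941 ± 473 RPM in KO and 446 ± 221 RPM in WT, with a limma adjusted p of 0.16. Some junctions hold at most 6 reads in a library where the gene's other junctions predict at least 30. Such far-below values concerned 13 junctions of 5 of the enzymes, Phgdh, Psph, Shmt1, Mthfd1l and Asns, and sums without those junctions are given beside the sums over all junctions where they differ.

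Of the 10 enzymes, 6 fell in KO cells and 0 rose, at a limma adjusted p under 0.05 over all genes tested. Across the 11003 genes tested, 12.1% fell and 8.49% rose by the same criterion. The 6 were Phgdh, Psat1, Shmt2, Mthfd1, Mthfd2 and Mthfd1l, and in each of them every KO library lay below every WT library. For comparison, 15.4% of all genes tested were lower in KO without overlap and 9.79% were higher. The median log2 fold change of the 10 enzymes was -0.63, against -0.07 over all genes tested. At an unadjusted limma p under 0.05, 7 enzymes were lower and 0 were higher. The share of all genes at that unadjusted threshold is not given here, so this count has no background beside it. With TMM scaling, which centres the median of all genes on 0.00, 6 enzymes also fell, while calls over all genes shifted to 1092 higher and 972 lower, against 934 higher and 1330 lower by library total. These are bulk levels, in which fewer cells of a type and less RNA per cell cannot be told apart.

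Without the junctions that hold far-below values, 7 enzymes fell, Shmt1 being added, against 17.7% of all genes. Other gene groups changed too: replication genes fell and neutrophil genes rose. Their part in the falls of the enzymes was not tested. Of 16 replication genes, 9 fell and 0 rose, and their summed level without far-below junctions was 2548 to 3084 RPM in KO and 4153 to 4633 RPM in WT. The 10 enzymes summed the same way had 1131 to 1539 RPM in KO and 2023 to 2591 RPM in WT. Of 14 tested neutrophil genes, most of them of granules and called granule genes here, 7 rose and 0 fell. Their sums were 6508, 13106, 7146 and 864 RPM in KO libraries 1 to 4 and 157 to 558 RPM in WT. Padi4, which is on this list but is not a granule protein, averaged 552 ± 201 RPM in KO and 310 ± 134 RPM in WT. The mean sum of the whole list in WT was 386 RPM. Without KO library 4, 12 granule genes rose. Ltf, Ngp and Lcn2, defining markers, were above 0 in every library, though Ngp was at only 0.572 to 7.20 RPM in WT. Other granule genes had no reads in some libraries. Retnlg was at 0 in every WT library, and Camp and Cd177 were at 0 in KO library 4. KO library 4, with the lowest granule sum of its group, had the highest KO values of Phgdh, Psat1, Mthfd1 and Mthfd1l over all junctions, whereas KO library 1 had those of Psph, Shmt2, Mthfd2, Aldh1l2 and Asns, and KO library 2, with the highest granule sum, that of Shmt1.

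**Figure D1:**
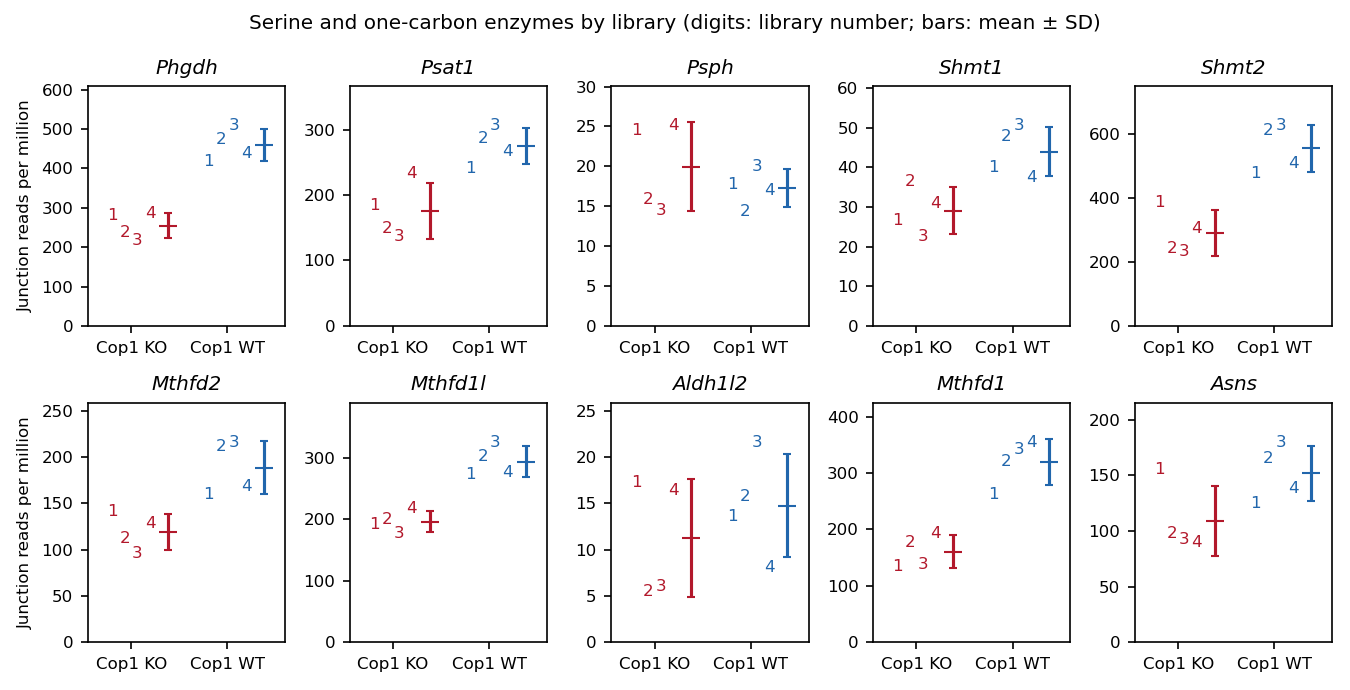
Summed junction level of each enzyme (RPM) in the 4 KO libraries, left, and the 4 WT libraries, right, with junctions holding far-below values left out; digits stand for library numbers and bars for mean ± SD. KO values lie wholly below WT values for 7 enzymes, while Psph, Aldh1l2 and Asns overlap.

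Phgdh, which commits 3-phosphoglycerate to serine synthesis, lies on mouse chromosome 3 at 98313170-98339990 on the minus strand (mm10, Gencode M21, used for all positions given). Its level was 343, 266, 276 and 353 RPM in KO libraries 1 to 4, against 418, 533, 634 and 494 RPM in WT libraries 1 to 4. No KO library reached the lowest WT library. The means were 309.6 ± 45.0 RPM in KO and 519 ± 89.9 RPM in WT (SD, n = 4 each), a log2 fold change of -0.74 with a standard error (SE) of 0.15 and a limma adjusted p of 0.012. Without the junctions with far-below values, the WT spread narrowed: the values were 279.6, 237, 218 and 285 RPM in KO, against 417, 474, 508 and 437 RPM in WT. That sum gave a log2 fold change of -0.85 (SE 0.11, limma adjusted p = 0.0016), with the KO mean at 55.5% of the WT mean.

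Psat1, the transaminase of the next step, lies on chromosome 19 at 15904678-15947337 on the minus strand. It had 184, 148, 137 and 232 RPM in KO, against 241, 286, 306 and 267 RPM in WT. KO library 4 came close to WT library 1 but stayed under it. Psat1 fell with a log2 fold change of -0.67 (SE 0.17, limma adjusted p = 0.025). This call depended on single libraries: leaving out 1 library moved the adjusted p to between 0.051 and 0.069 for KO libraries 1, 2 or 3 and for WT libraries 2, 3 or 4.

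Psph, the phosphatase that releases free serine, did not share this pattern. It lies on chromosome 5 at 129765558-129787449 on the minus strand and had 28.1, 19.8, 14.5 and 25.1 RPM in KO, against 17.9, 16.5, 23.8 and 21.2 RPM in WT. The highest and the lowest of the 8 values were both KO libraries. Psph thus had a log2 fold change of 0.11 (SE 0.21, limma adjusted p = 0.76), and without KO library 1 it was -0.02.

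Shmt2, the mitochondrial serine hydroxymethyltransferase, lies on chromosome 10 at 127517123-127522444 on the minus strand. It had 384, 242, 231 and 304 RPM in KO, against 475, 608, 624 and 507 RPM in WT. Every KO library was below every WT library, and KO library 1 was the closest to WT. The means were 289.9 ± 70.4 RPM in KO and 554 ± 73.5 RPM in WT, a log2 fold change of -0.95 (SE 0.17, limma adjusted p = 0.0088).

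Shmt1, its cytosolic counterpart, lies on chromosome 11 at 60788104-60811718 on the minus strand and was nearer the threshold. Over all junctions it had 36.6, 52.2, 36.8 and 47.7 RPM in KO, against 46.8, 69.0, 72.0 and 61.6 RPM in WT. KO libraries 2 and 4 lay above WT library 1, so the groups overlapped. The log2 fold change was -0.51 (SE 0.17, limma adjusted p = 0.069). Far-below values touched 5 Shmt1 junctions, more than in any other of the enzymes. Without these junctions the values were 26.5, 36.5, 22.6 and 30.9 RPM in KO, against 39.9, 47.9, 50.5 and 37.6 RPM in WT, with no overlap and a log2 fold change of -0.59 (SE 0.16, limma adjusted p = 0.025). With library number as a block, the sum over all junctions also passed (log2 fold change -0.51, limma adjusted p = 0.034).

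Mthfd1, the trifunctional cytosolic enzyme that turns formate into one-carbon folates, had the lowest log2 fold change of the 10 over all libraries and junctions. It lies on chromosome 12 at 76255298-76319803 on the plus strand. It had 134, 178, 138 and 192 RPM in KO, against 262, 321, 343 and 354 RPM in WT. All KO libraries lay well below WT library 1, the lowest of its group. The means were 160.5 ± 29.0 RPM in KO and 319.8 ± 41.2 RPM in WT, so KO stood at 50.2% of WT. The log2 fold change was -0.998 (SE 0.15, limma adjusted p = 0.0044), at percentile 2.40 of the log2 fold changes of all genes tested.

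Mthfd2, the mitochondrial methylenetetrahydrofolate dehydrogenase, lies on chromosome 6 at 83305691-83325908 on the minus strand. It had 141, 112, 95.5 and 128 RPM in KO, against 159, 211, 216 and 169 RPM in WT. KO library 1 was the closest to WT library 1, and the groups did not overlap. Mthfd2 fell by 0.66 on the log2 scale (SE 0.15, limma adjusted p = 0.019). The adjusted p was 0.053 without KO library 2 and 0.056 without WT library 2.

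Mthfd1l, which releases formate from the mitochondrial pathway, had the smallest error of the 10. It lies on chromosome 10 at 3973118-4167081 on the plus strand and had 199, 214, 190.2 and 217 RPM in KO, against 295, 323, 340.2 and 285 RPM in WT. Both groups were tight and well separated. The means were 205 ± 12.5 RPM in KO and 311 ± 25.4 RPM in WT, a log2 fold change of -0.60 (SE 0.08, limma adjusted p = 0.0039).

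Aldh1l2, the mitochondrial formyltetrahydrofolate dehydrogenase, was the enzyme with the fewest reads. It lies on chromosome 10 at 83487450-83534140 on the minus strand and had 17.2, 5.48, 6.04 and 16.4 RPM in KO, against 13.6, 15.7, 21.6 and 8.14 RPM in WT. KO libraries 2 and 3 lay below every WT library, while KO libraries 1 and 4 lay above WT libraries 1, 2 and 4. The log2 fold change was -0.45 with an SE of 0.42 (limma adjusted p = 0.50), so no difference was detectable beyond the spread.

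Asns, asparagine synthetase, lies on chromosome 6 at 7675169-7693254 on the minus strand. Over all junctions it had 200.0, 116, 119 and 103 RPM in KO, against 142, 189, 232 and 139.5 RPM in WT. KO libraries 2 to 4 lay below every WT library, and KO library 1 lay above all but WT library 3. The log2 fold change was -0.40 (SE 0.24, limma adjusted p = 0.27). Without the 3 junctions with far-below values, Asns had 155, 97.6, 92.0 and 89.6 RPM in KO, against 124, 165, 179 and 139 RPM in WT, a log2 fold change of -0.50 (SE 0.19, limma adjusted p = 0.082). KO library 1 still overlapped WT, and Asns did not pass the threshold in any of the 23 alternatives tried.

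Promoter sequences were available for 9 of the 10 enzymes, with a pair for Psat1 and none for Aldh1l2 (RefSeq, GRCm38.p6, 250 bases before to 50 after the start). They were searched on both strands for TGATGNAA, the core of the composite element bound by ATF4 with C/EBP factors, for TTGCNNAA, a core of C/EBP sites, and for CACGTG, the E-box bound by MYC. TGATGNAA was found in Asns alone among the 9, where 3.97% of 32851 promoters hold it. TTGCNNAA and CACGTG matched 0 of the 9, against 10.8% and 7.15% of all promoters, and no 2 matches overlapped. A match is only a description of letters in this window. The bases before the start are shown for Asns, which holds the match, and for Mthfd1 and Shmt2, which fell most and hold none, each 5′ to 3′ on the gene's own strand. Capitals mark the TGATGNAA match, whose first base is at -23 from the start. Asns is chr6:7693210-7693459 on the minus strand, Mthfd1 is chr12:76254982-76255231 on the plus strand and Shmt2 is chr10:127522445-127522694 on the minus strand.
Asns: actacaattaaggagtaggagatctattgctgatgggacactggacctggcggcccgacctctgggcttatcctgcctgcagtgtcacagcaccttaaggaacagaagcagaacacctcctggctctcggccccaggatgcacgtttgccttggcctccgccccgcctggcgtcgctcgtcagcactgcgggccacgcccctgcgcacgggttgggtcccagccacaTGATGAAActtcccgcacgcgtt
Mthfd1: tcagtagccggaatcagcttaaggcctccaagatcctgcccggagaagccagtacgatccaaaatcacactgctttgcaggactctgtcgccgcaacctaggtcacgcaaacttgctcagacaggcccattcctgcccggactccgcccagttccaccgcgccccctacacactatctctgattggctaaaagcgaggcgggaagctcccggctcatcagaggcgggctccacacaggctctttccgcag
Shmt2: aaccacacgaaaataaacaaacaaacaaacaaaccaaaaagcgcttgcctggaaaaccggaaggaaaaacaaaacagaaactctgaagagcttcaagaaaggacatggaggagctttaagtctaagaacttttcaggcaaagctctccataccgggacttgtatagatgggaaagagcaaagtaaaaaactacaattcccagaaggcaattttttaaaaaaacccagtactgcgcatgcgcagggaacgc

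**Figure D2:**
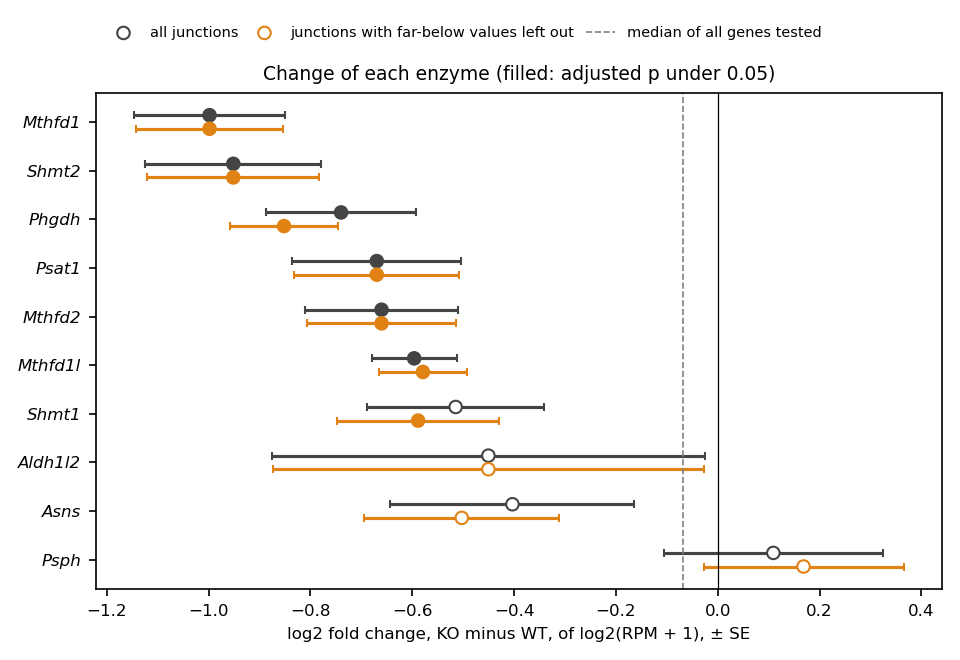
Log2 fold change of each enzyme, KO minus WT, on log2(RPM + 1), with bars of ± 1 SE (n = 4 libraries per group) and filled points for a limma adjusted p under 0.05. Leaving out junctions with far-below values moved Phgdh to -0.85 and brought Shmt1 past the threshold; the dashed line marks the median of all genes tested, -0.07.

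Library number links KO and WT libraries, so levels without far-below junctions were also set side by side within numbers. For Phgdh, Psat1, Shmt1, Shmt2, Mthfd1, Mthfd2 and Mthfd1l, the KO library was below the WT library of its number in 4 of 4 pairs. These 7 enzymes had no overlap between the groups on the same sums, so 4 of 4 would follow from any pairing. Asns was lower in 3 of 4 pairs, Aldh1l2 in 2 and Psph in 1. KO libraries also varied among themselves in a shared way: libraries 1 and 4 were the highest KO libraries for Phgdh, Psat1, Psph, Shmt2, Mthfd2 and Aldh1l2, whereas libraries 2 and 4 were the highest for Mthfd1, Mthfd1l and Shmt1.

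Phgdh, Shmt2, Mthfd1 and Mthfd1l passed the threshold in all 23 alternatives, which changed scaling, pseudocount, filter, junction handling, the block or the libraries used. Their adjusted p ranged from 7.4e-04 to 0.041 for Phgdh, from 0.0055 to 0.031 for Shmt2, from 2.6e-04 to 0.018 for Mthfd1 and from 0.0010 to 0.017 for Mthfd1l. Without any 1 library, 4 to 7 enzymes passed as lower, with 4 when KO library 2 or WT library 2 was left out. Over all genes, 706 to 1742 were lower in these fits, of 10939 to 11030 tested. Without both libraries numbered 4, 6 enzymes were lower, against 14.1% of all genes.

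To set the enzymes on 1 scale, the median RPM over a gene's junctions was used, since a gene with more junctions collects more reads. In KO libraries Psat1, Phgdh and Shmt2 led, at 32.8 ± 8.03, 27.3 ± 4.79 and 26.3 ± 5.43 RPM per junction (SD, n = 4). The same genes led in WT libraries, at 50.6 ± 4.80 for Psat1, 49.9 ± 3.04 for Phgdh and 50.5 ± 6.45 for Shmt2, levels that do not differ beyond their spread. Mthfd2 followed with 17.3 ± 2.81 in KO and 27.0 ± 3.16 in WT, then Asns with 13.4 ± 4.11 in KO and 19.3 ± 3.13 in WT. Mthfd1l had 7.76 ± 0.886 in KO and 11.3 ± 1.15 in WT, and Mthfd1 had 5.93 ± 1.09 in KO and 11.9 ± 1.70 in WT, so the order of these neighbours differs between the groups but their WT values overlap. Shmt1 stood at 4.61 ± 0.937 in KO and 6.80 ± 1.05 in WT, and Psph at 4.13 ± 1.37 in KO and 3.67 ± 0.395 in WT. Aldh1l2 was lowest, at 0.543 ± 0.313 RPM per junction in KO and 0.744 ± 0.283 in WT.

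The mitochondrial and cytosolic enzymes can be set against each other on this scale. The Shmt2 to Shmt1 ratio was 5.89 ± 1.73 in KO and 7.45 ± 0.354 in WT, with KO library 1 at 8.28 and the other KO libraries between 4.24 and 5.86. The Mthfd1l to Mthfd1 ratio was 1.33 ± 0.203 in KO and 0.962 ± 0.135 in WT, above 1 in 4 of 4 KO libraries and in 1 of 4 WT libraries. These ratios are descriptions without a test.

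The falls were seen at most junctions of the genes that fell. Of the 147 junctions, 121 averaged 10 or more scaled reads with no far-below value, and 81 of these were lower in KO without overlap while 0 were higher. Among all 85793 junctions that met the same conditions, 15% were lower and 7.88% higher without overlap. Junctions of 1 gene share its transcripts and are not independent. In Mthfd1, 27 of 27 junctions were lower without overlap, with KO means at 43.1% to 57.2% of WT means. In Shmt2 it was 11 of 11, between 49.1% and 56.6%, and in Phgdh 9 of 9, between 51.3% and 58.8%. Mthfd1l had 21 of 26, Mthfd2 6 of 7 and Psat1 4 of 6. In Asns 0 of 9 junctions separated the groups although KO means stood at 64.9% to 76.2% of WT at every one of them. Psph also had 0, of 5, with KO means at 110% to 156% of WT.

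**Figure D3:**
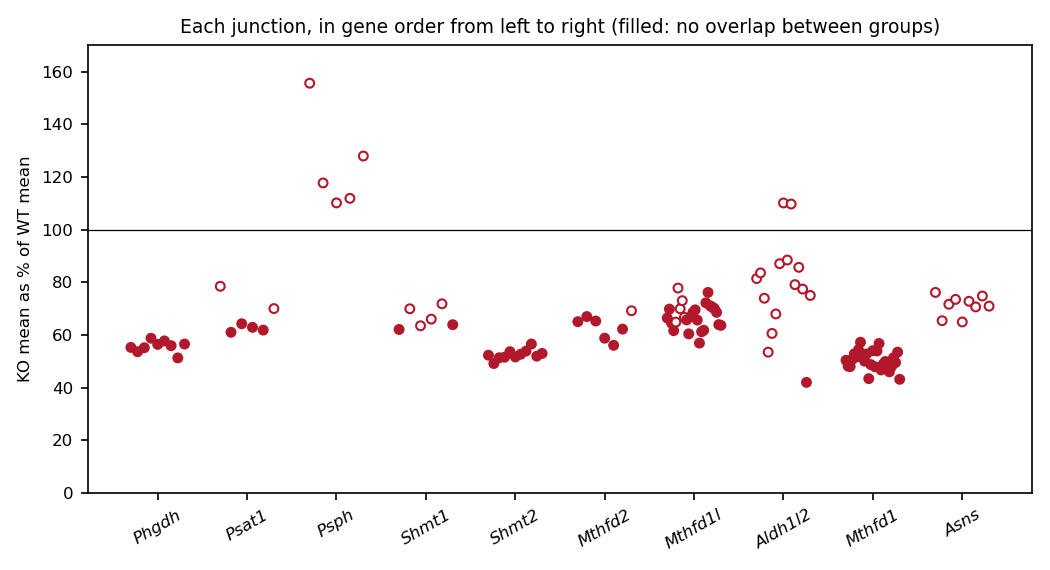
KO mean as a percent of WT mean for each compared junction of the 10 enzymes, with each point 1 junction and filled points marking junctions where the 4 KO and 4 WT libraries do not overlap. Points of Mthfd1, Shmt2 and Phgdh are all filled and lie between 43.1% and 58.8%, while none is filled for Psph or Asns.

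Junction use within a gene was tested apart from its level. Of 96 junctions of these enzymes with enough reads, 0 changed in use by limma's diffSplice at an adjusted p under 0.05, and 0 had an unadjusted p under 0.05. With library number as a block the count was also 0, as it was for a lower minimum of 30 scaled reads. Over all 35377 junctions tested, 0.0311% were called, 0.0735% were called with the block, and 0.633% of the larger set at the lower minimum.

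The far-below values fell in KO and WT libraries alike. In Phgdh, the junction between exon blocks 4.2 and 5.2 had 3 reads in WT library 1 and 1 read in WT library 4, against 505 to 1173 reads in the other 6 libraries. In Asns, the junction between blocks 6.5 and 7.1 had 449 reads in KO library 1 and 294 in KO library 4, against 1 to 5 reads in every other library. Another, between blocks 10.2 and 11.1, had 275 reads in KO library 3 and 485 in WT library 3, against 2 to 12 elsewhere. Counted only where at least 100 reads were predicted, such values made up 6.04 ± 0.275% in KO and 6.17 ± 0.403% in WT (exact permutation p = 0.571, two-sided, n = 4 each). These percentages are shares of the values at junctions with enough reads to be checked, not of the whole table.

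**Figure D4:**
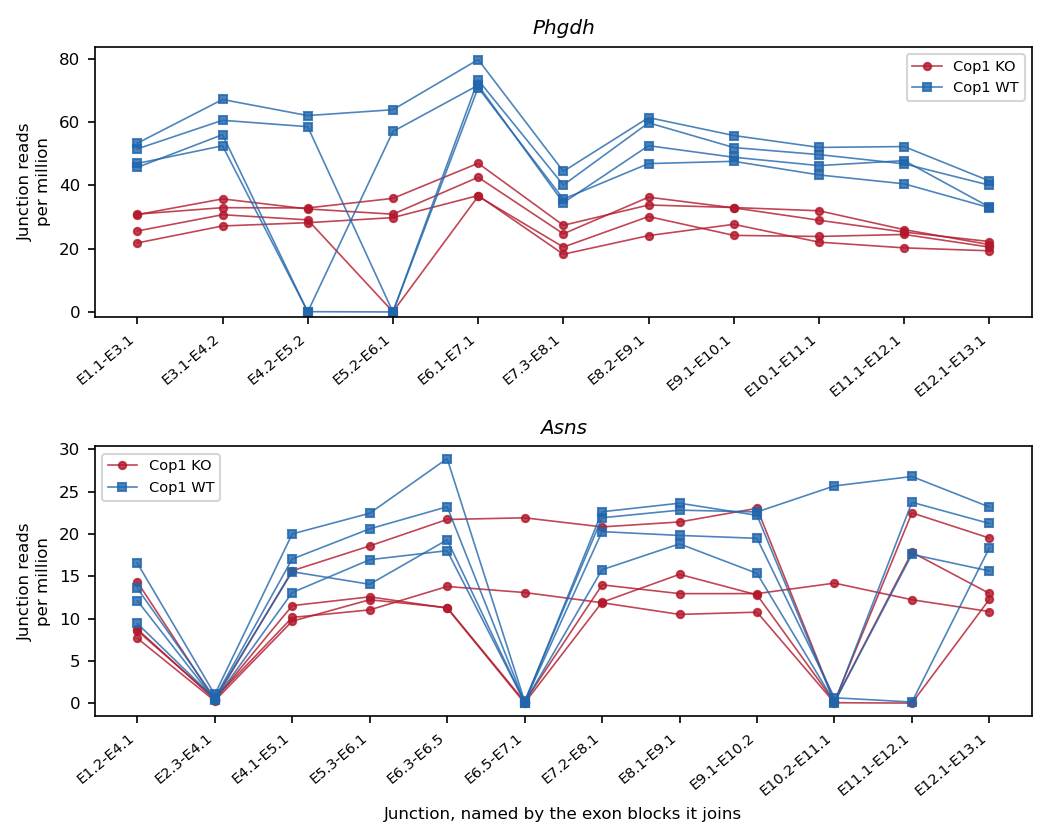
Junction level (RPM) at each junction of Phgdh and Asns in transcript order, with 1 line per library (KO circles, WT squares). At junctions with far-below values, 2 to 6 libraries drop to near 0, in some libraries at adjacent junctions. Junctions without such values keep the level of the gene, except the low Asns junction E2.3-E4.1, which is near 0 in all 8. The other 9 Phgdh junctions separate KO from WT and those of Asns do not.

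Genes of the pathways that take up one-carbon units downstream were examined by list, whether or not their own step uses such a unit. Shares of all genes tested, for each list below, were 12.1% lower and 8.49% higher. Of 15 tested genes of purine and thymidylate synthesis, 10 fell and 1 rose, with a median log2 fold change of -0.70. Ppat, which opens de novo purine synthesis, had 40.8, 57.1, 40.6 and 64.0 RPM in KO, against 105, 112, 105 and 118 RPM in WT (log2 fold change -1.13, limma adjusted p = 0.0039). Gart and Atic, those of the list that use formyl-tetrahydrofolate, had log2 fold changes of -0.86 (limma adjusted p = 0.0049) and -0.79 (limma adjusted p = 0.020). Tyms, which makes thymidylate with a one-carbon folate, is counted with the folate enzymes below. It changed by -0.19 (limma adjusted p = 0.32), and by -0.36 (limma adjusted p = 0.023) without junctions holding far-below values. Impdh2 and Gmps, of guanine nucleotide synthesis, changed by -0.86 (limma adjusted p = 0.0020) and -0.49 (limma adjusted p = 0.0037). Impdh1, of the same step as Impdh2, changed by 0.29 (limma adjusted p = 0.070). Without junctions holding far-below values its limma adjusted p was 0.048, and 2 genes of the list rose. Leaving out 1 library brought the count that fell to between 5 and 11, with 5 without KO library 3 and 6 without KO library 1, WT library 2 or WT library 4. Adssl1, an adenylosuccinate synthase, was the 1 that rose (log2 fold change 1.37, limma adjusted p = 0.0042).

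Of 13 tested folate enzymes and carriers outside the 10, 3 fell and 0 rose, with a median of 0.05. Without junctions holding far-below values, 5 fell and 1 rose. Among those that fell, the folate carriers Slc19a1 of the plasma membrane and Slc25a32 of the mitochondrion changed by -0.76 (limma adjusted p = 0.0083) and -0.75 (limma adjusted p = 0.013). Ggh, a lysosomal folate hydrolase, averaged 124 ± 47.6 RPM in KO and 53.3 ± 16.2 RPM in WT (limma adjusted p = 0.058, and 0.0064 with library number as a block). Of 10 tested genes of the methionine cycle and transsulfuration, 3 fell and 0 rose: Mtr, which takes the methyl group from folate (-0.74, limma adjusted p = 0.0077), Mat2a (-0.78, limma adjusted p = 0.0054) and Ahcy (-0.56, limma adjusted p = 0.0039). Without KO library 4 the count that fell was 5. Of 3 tested glycine cleavage genes, 0 passed by limma and 0 had an unadjusted p under 0.05; without KO library 4, 1 of them, Gcsh, fell.

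Serine carriers and other users of serine moved in both directions, with 2 higher and 2 lower of 15. Among all genes tested, 8.49% were higher and 12.1% lower. Sptlc2 (log2 fold change 0.56, limma adjusted p = 0.019) and Serinc5 (1.17, limma adjusted p = 0.035) rose. With library number as a block 4 were lower, Sfxn1 (log2 fold change -0.39, limma adjusted p = 0.12, and 0.048 with the block) and Serinc3 (-0.28, limma adjusted p = 0.10, and 0.032 with the block) being added. Without junctions holding far-below values, 4 were higher and 2 lower, against 11% and 17.7% of all genes. The neutral amino acid carriers Slc1a4 (log2 fold change -1.12, limma adjusted p = 0.011) and Slc38a1 (-0.62, limma adjusted p = 0.0088) fell, Slc38a1 with an adjusted p of 0.075 at its most-read junction alone. Of 5 tested genes of lower glycolysis, some acting before and some after 3-phosphoglycerate, 0 passed by limma. At an unadjusted p under 0.05, 3 were higher, and the median was 0.35. Without junctions holding far-below values, 3 of the 5 rose. Gapdh (log2 fold change 0.43, limma adjusted p = 0.0055) acts before 3-phosphoglycerate. Pkm (0.55, limma adjusted p = 0.0075) and Pgam1 (0.35, limma adjusted p = 0.046) act after it. Of 17 tested enzymes of other nonessential amino acids, 1 rose and 2 fell, with a median of -0.06. Bcat1, a branched-chain transaminase, and Pycrl, of proline synthesis, were those that fell, at -0.85 (limma adjusted p = 0.025) and -0.63 (limma adjusted p = 0.012), Bcat1 with an adjusted p of up to 0.071 when 1 library was left out.

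Of 24 tested genes of the ATF4 and amino acid response, a list that overlaps in function with several of the enzymes, 2 rose and 2 fell, with a median of 0.15. Atf4 itself averaged 209.6 ± 33.7 RPM in KO and 196 ± 22.5 RPM in WT (log2 fold change 0.09, limma adjusted p = 0.67). Slc7a11, the cystine carrier, had 123, 143, 52.5 and 34.0 RPM in KO, against 8.82 to 9.98 RPM in WT (log2 fold change 2.86, limma adjusted p = 0.0044), and its partner Slc3a2 rose by 0.51 on the log2 scale (limma adjusted p = 0.015). Chac1, another ATF4 target, averaged 4.45 ± 2.04 RPM in KO and 10.6 ± 3.48 RPM in WT (limma adjusted p = 0.051). Those that fell were Gcn1l1 (log2 fold change -0.52, limma adjusted p = 0.011) and Eif2ak4, the kinase that senses amino acid shortage (-0.45, limma adjusted p = 0.026, and up to 0.069 when 1 library was left out), each without overlap between the groups. Without junctions holding far-below values, 3 of 23 rose and 3 fell. Ddit3 was added to those that rose (log2 fold change 0.80, limma adjusted p = 0.034) and Chac1 to those that fell (-1.11, limma adjusted p = 0.037).

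**Figure D5:**
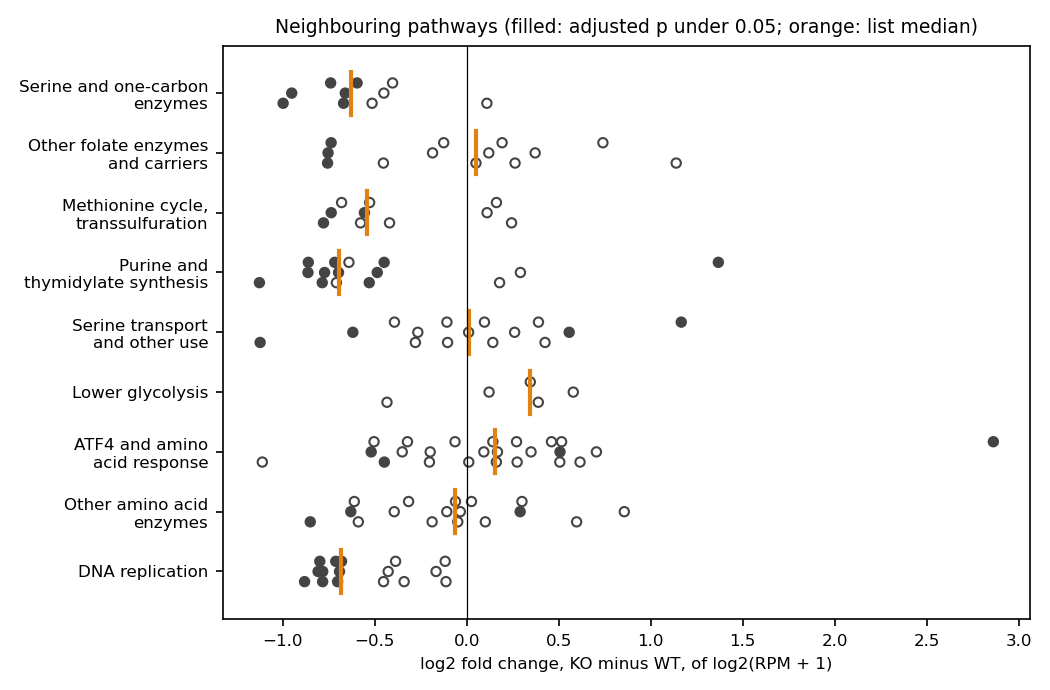
Log2 fold changes, KO minus WT, of the genes tested in each list, with 1 point per gene and filled points for a limma adjusted p under 0.05. The enzymes of serine and one-carbon metabolism and the purine genes lie mostly left of 0, with medians of -0.63 and -0.70, while the ATF4 list centres at 0.15.

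Markers of other cell types were checked, and their part in the results was not tested. Shares over all genes tested were 8.49% higher and 12.1% lower, with 14.1% lower without both libraries numbered 4. Monocyte genes rose for 3 of 9, with sums of 729.8 to 2411 RPM in KO and 485 to 986 RPM in WT. Of 7 mast cell and basophil genes, 3 rose. Their sums were high in both groups and overlapped, at 11884 to 17080 RPM in KO and 12061 to 14021 RPM in WT. T cell genes summed to 4.33 to 8.63 RPM in KO and 13.1 to 38.7 RPM in WT, mostly through Lck, a kinase of lymphocytes, at 2.78 ± 2.46 RPM in KO and 24.2 ± 9.14 RPM in WT. Cd3g averaged 3.04 ± 2.28 RPM in KO and 2.98 ± 2.51 RPM in WT, and Cd3d 0.340 ± 0.202 RPM in KO and 0.392 ± 0.279 RPM in WT. B cell genes summed to at most 3.38 RPM in any library. Of 4 tested erythroid genes, 1 fell and 0 rose, with sums of 58.8 to 429 RPM in KO and 262 to 551 RPM in WT. Without both libraries numbered 4, 3 of 3 fell, and 2 of 3 when far-below junctions were also left out. Over all 8 libraries the 1 that fell was Hba-a1, an alpha globin whose reads may be shared with a near-identical copy. It had 4.05 ± 0.383 RPM in KO and 31.4 ± 10.7 RPM in WT (log2 fold change -2.61, limma adjusted p = 0.0013). Of 3 tested megakaryocyte genes, 0 passed by limma and 0 had an unadjusted p under 0.05. Of 12 tested blast and progenitor genes, 4 rose and 1 fell, with sums of 5742 to 7585 RPM in KO and 2854 to 4872 RPM in WT. Those that rose were Csf2rb (2495 ± 241 RPM in KO, 1171 ± 182 in WT), Ctsg (1882 ± 377 in KO, 523 ± 409 in WT), Ptprc and Spi1. Csf2rb, Myb and Ptprc had reads in all 8 libraries, with Myb at 600 ± 79.1 RPM in KO and 611 ± 167 RPM in WT. The gene that fell was Cd34, a progenitor marker, at 70.6 ± 34.5 RPM in KO and 199.7 ± 79.5 RPM in WT (log2 fold change -1.56, limma adjusted p = 0.033, and up to 0.082 when 1 library was left out). Kit, another progenitor marker, averaged 74.3 ± 34.8 RPM in KO and 119.6 ± 75.3 RPM in WT (limma adjusted p = 0.53, and 0.041 with library number as a block). Hoxa9 had 0 reads in KO libraries 1 and 2 and in WT libraries 1 and 2, against 16.8 and 41.6 RPM in KO libraries 3 and 4 and 7.88 and 87.6 RPM in WT libraries 3 and 4.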

How the data were processed

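RNA of 8 libraries was sequenced, 4 per group, from strand-specific libraries made with 2 µg of total RNA. The submitters' processing notes name Trimmomatic 0.39, kallisto and build mm10; the aligner is not given in the sources used here. The deposited table holds a normalised signal per AltAnalyze junction: tested on the values, each is the read count plus 1, scaled by the library total and a length of 60 nt. Inverting this gave whole reads (within 0.001) for all values above the floor. Reads were summed per gene and scaled to RPM; a fragment spanning several junctions counts at each. Symbols were matched by Ensembl ID for 13247 of 13378 genes.

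limma 3.58.1 (R 4.3.3) was run on log2(RPM + 1), KO minus WT, with its trend and robust options, on genes averaging 1 RPM or more; p-values were adjusted by Benjamini-Hochberg over 11003 genes. Fold changes on this scale understate those of low genes. Scripts were tested on simulated data with 200 changed genes. Junction use was tested on log2(RPM + 0.05) for junctions with at least 100 scaled reads. Exact permutation tests were two-sided, and 4 against 4 libraries cannot give a p below 0.0286. Counts and levels carry counting error besides the spread shown.

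The members, the gene lists and the rule for named genes were chosen with earlier results of these data known. All 10 enzymes were described in full, and from the other lists up to 4 genes past the threshold with the smallest adjusted p. Any tested gene of the folate, purine, methionine, ATF4 and other amino acid lists, or of a list of at most 6 genes, could also be named. Sfxn1, Serinc3, Cd3d, Cd3g, Kit, Hoxa9, Myb, Spi1, Padi4, Retnlg, Camp and Cd177 were chosen after their values were seen. Library numbers pair the libraries: deviations from group means correlated at 0.32, 0.29, 0.36 and 0.55 between KO and WT libraries numbered 1, 2, 3 and 4, against at most 0.15 between different numbers. The reported fit has no block for the number. Alternatives changed scaling, pseudocount, filter, junction handling, block and libraries. The analysis was planned for count or TPM tables, and the test for normalised values was used in their place.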

Additional observations from a re-analysis of the deposited data

Results flagged for a closer look

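Asns stood out in KO library 1. Over all junctions it had 200.01 RPM there, far from the other KO libraries, of which the next was 118.63 RPM. Without junctions holding far-below values it had 155.43 RPM there, and the next KO library 97.558 RPM. This was a search for a single sample far from the rest of its group of 4, run 40 times over the enzymes, both groups and both sums. Chance flags about 1 in 20 such groups, and the 2 sums of Asns share most of their reads.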

How the results depend on the processing

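Of 23 alternatives, 19 were planned and 4 were chosen after seeing the data. All 23 left Phgdh, Shmt2, Mthfd1 and Mthfd1l past the threshold. Psat1 lost its call in 6 and Mthfd2 in 2, each of them the loss of 1 library, and Shmt1 gained one in 8. Without 1 library, the log2 fold change of Psph ran from -0.020 (without KO replicate 1, a reversal) to 0.28. That of Dld, of the glycine cleavage list, turned to 0.015 with TMM and 0.016 with median-of-ratios scaling. Leaving out 1 library gave 4 to 7 enzymes lower and 0 higher, with 509 to 1249 genes higher and 706 to 1742 lower among all genes. With the replicate block, 7 enzymes were lower (Shmt1 added) and 1357 genes rose and 1727 fell. The block without far-below junctions gave 1695 higher and 2389 lower, or 1800 and 2576 at the 30-read setting. Without both libraries numbered 4 that setting gave 1580 higher and 2280 lower. Apart from Shmt1, the block alone changed no call among the 10 enzymes; Trib1 passed with it (adjusted p = 0.021). Causes of these shifts were not tested. Count models of edgeR and DESeq2 were planned and not run. Aldh1l2 (95 to 408 reads per library) and Psph (281 to 577) had the fewest reads and so the largest counting error of the enzymes.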
